A study of Mus musculus with 39 samples.

Results

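The RNAs of 8 enzymes of ammonia disposal were followed through sucrose gradients of mouse liver. They were Cps1, Otc, Nags, Ass1, Asl, Arg1, Glul and Gls2, chosen by name among the 13230 genes listed for both gradients, and all 8 were found. The samples were fractions of 2 gradients from different mice, both wild-type FVB females with no treatment, whose livers were homogenized without detergent and freed of nuclei. No age was given, and every library shared this genotype and condition, so the libraries differed only in fraction number (low to high sucrose density) and gradient. Gradient 1 had 17 libraries (fractions 4 to 19 and 21), gradient 2 had 22 (fractions 3 to 24), and 17 fraction numbers were shared. Values are TPM, a transcript abundance corrected for length and scaled to a common total in each library, and so a share of its RNA. Equal masses of RNA entered each library, so a high TPM in a fraction is a high share of that fraction's RNA and says nothing of how much RNA the fraction held. For comparisons, fractions 4 to 7 were taken as a light zone, 10 to 13 as a middle zone and 16 to 19 as a dense zone, each with 4 libraries per gradient and 8 in all.

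The urea cycle turns ammonia and bicarbonate into urea and runs in hepatocytes, most strongly near the portal vein. Its first steps lie in the mitochondrial matrix, where Cps1 makes carbamoyl phosphate and Otc joins it to ornithine, and Nags makes N-acetylglutamate, the obligatory activator of Cps1. Citrulline then leaves for the cytosol, where Ass1 and Asl build and split argininosuccinate and Arg1 releases urea from arginine. Glul, glutamine synthetase, captures the remaining ammonia around the central vein. Gls2, the liver glutaminase, is a mitochondrial enzyme that breaks glutamine down and so works opposite to Glul, although both are grouped here as enzymes of glutamine. Matrix enzymes are made by cytosolic ribosomes and are commonly imported by a presequence at the amino end that is rich in basic residues and poor in acidic ones.

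The members were located in the GENCODE M21 annotation of GRCm38, the assembly that mm10 names. This is a reference genome and not that of the FVB mice. Cps1 (ENSMUSG00000025991) lies at chr1:67123026-67231259 on the plus strand. Otc lies at chrX:10252305-10321024, plus strand, with its start codon in exon 1 at chrX:10252437-10252439, and Nags at chr11:102145513-102149477, plus strand, with its start codon in exon 1 at chr11:102145587-102145589. Ass1 is at chr2:31470207-31520672, plus strand, Asl at chr5:130011258-130029247, minus strand, and Arg1 at chr10:24915221-24927484, minus strand (start codon in exon 1, chr10:24927366-24927368). Glul occupies chr1:153899944-153909723 on the plus strand with the start codon in exon 2 at chr1:153902947-153902949, and Gls2 chr10:128194457-128210004 on the plus strand with the start codon in exon 1 at chr10:128194726-128194728. The first 90 coding bases, 30 codons, are shown for Otc, Nags and Gls2, which are mitochondrial, and for Arg1 and Glul, which are cytosolic, because an import presequence would be encoded there. They read 5′ to 3′ from the start codon along the spliced transcript, and capitals mark codons for arginine or lysine.
Otc: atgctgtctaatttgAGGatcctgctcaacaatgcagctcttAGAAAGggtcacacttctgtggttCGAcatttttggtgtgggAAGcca
Nags: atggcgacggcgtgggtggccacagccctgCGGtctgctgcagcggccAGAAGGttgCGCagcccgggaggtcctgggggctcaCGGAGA
Gls2: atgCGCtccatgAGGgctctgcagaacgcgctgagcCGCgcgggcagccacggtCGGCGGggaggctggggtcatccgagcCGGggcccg
Arg1: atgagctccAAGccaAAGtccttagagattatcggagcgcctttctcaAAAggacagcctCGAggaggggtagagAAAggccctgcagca
Glul: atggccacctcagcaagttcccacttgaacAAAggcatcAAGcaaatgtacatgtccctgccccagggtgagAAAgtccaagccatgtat

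Otc had 5 arginine or lysine codons among the first 30, Nags and Gls2 had 6 each, and none of the 3 had a codon for aspartate or glutamate. Arg1 had 5 basic and 2 acidic codons, and Glul had 3 basic and 1 acidic. The excess of basic over acidic codons was therefore 5 or 6 in these mitochondrial enzymes and 3 and 2 in Arg1 and Glul, which describes these 5 sequences and not their sedimentation.

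The liver label was met by the data, since all 6 hepatocyte markers (among them Alb, Apob and Hnf4a) were in both tables, with a summed level of 5524 to 58375 TPM in the zone libraries. Summed markers of Kupffer cells reached at most 190 TPM, of endothelial cells 96.2, of stellate cells 94.4, of cholangiocytes 9.43, of lymphocytes 6.77 and of erythroid cells 496, and no marker found in both tables was at 0 in all libraries of a zone. From the light to the dense zone, 4 of 6 hepatocyte, 4 of 6 Kupffer cell, 4 of 5 endothelial, 5 of 6 stellate and 2 of 3 erythroid markers tested fell, beside 39.6% of all genes, and none of these or of the 3 cholangiocyte markers tested rose. With the gradient as a block, 1 cholangiocyte and 1 erythroid marker rose. No lymphocyte marker was abundant enough to test. The part of these markers in the results was not tested. Each library listed 10532 to 12558 genes over 1 TPM, and its values summed to 998099 to 999202 TPM. For the summed levels in whole tissue, few cells of a type and little RNA per cell cannot be told apart. All zones of a gradient came from the same homogenate, so differences between zones do not compare cell numbers.

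All 8 RNAs were abundant. Ordered by mean TPM over the 17 shared fractions (mean of 2 gradients ± SD), Ass1 was highest with 6267 ± 1821 TPM. Arg1 (2949 ± 58.2 TPM) and Cps1 (2811 ± 1057 TPM) followed and did not differ beyond their spread, whereas the other neighbors in this order did. Asl had 1071 ± 48.8 TPM, Glul 859 ± 27.8, Otc 541 ± 66.0 and Gls2 443 ± 12.9, and the activator-making Nags was lowest with 126 ± 55.6 TPM. Steps of the same pathway thus differed widely in RNA, with Otc below its neighbors Cps1 and Ass1 in both gradients.

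The gradients differed most in the levels of Cps1, Ass1 and Nags. Cps1 averaged 2064 TPM in gradient 1 and 3558 TPM in gradient 2, a ratio of 1.72 that lay at percentile 96.8 of 11371 genes. Ass1 moved the same way, from 4979 to 7554 TPM (ratio 1.52, percentile 94.2). Nags went the other way, from 165 to 86.5 TPM (ratio 0.524, percentile 4.30), and was lower in gradient 2 in each of the 17 fractions, where the ratio ran from 0.390 to 0.756. Asl, Arg1, Glul and Gls2 had ratios between 0.938 and 1.04, and Otc had 1.19. With 1 library per fraction and gradient these ratios have no test, and a difference between mice cannot be told apart from one between preparations.

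**Figure D1:**
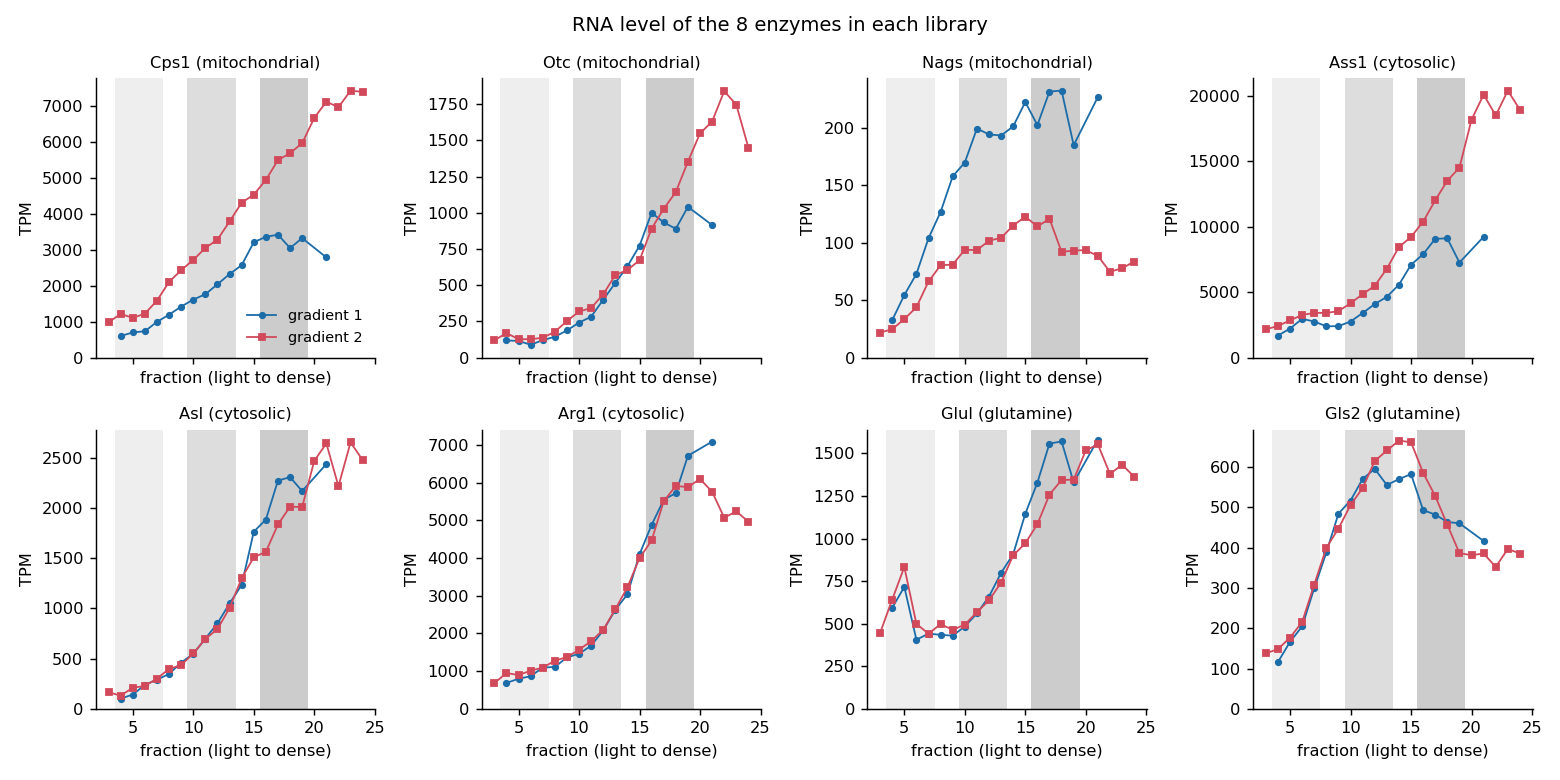
TPM of each RNA (vertical axes, starting at 0) against fraction number from light to dense, with circles for gradient 1 (17 libraries), squares for gradient 2 (22 libraries) and gray bands for the light, middle and dense zones. Most curves climb to the dense end, while Gls2 peaks at fractions 12 and 14, Nags levels off and Glul has a small crest at fraction 5.

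Cps1, which commits ammonia to the cycle, climbed across the gradient. Its 8 light-zone libraries held 604 to 1586 TPM (median 1050), the middle zone 1614 to 3783 (median 2520) and the dense zone 3045 to 5958 (median 4177). Light libraries lay below all middle and dense ones, whereas the middle and dense zones overlapped between gradients but not within either. The dense zone was 4.33-fold above the light zone in gradient 1 and 4.30-fold in gradient 2, a difference in mean log2(TPM + 1) of 2.12 (SE 0.42, limma adjusted p = 0.00647). The rise from light to middle was 1.34 (SE 0.42, adjusted p = 0.0418, and 0.0702 with TPM rescaled without the 50 most abundant genes). From middle to dense it was 0.78 (SE 0.42, adjusted p = 0.224), and with the gradient as a block, which takes out the level difference between gradients, adjusted p = 0.00371. In gradient 1 the climb ended at fraction 17 with 3416 TPM and fraction 21 held 2785 TPM, while in gradient 2 fraction 21 was the highest of the shared fractions with 7108 TPM.

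Otc, which makes citrulline, had the steepest profile of the mitochondrial enzymes. The light zone held 89.2 to 171 TPM (median 124), the middle zone 242 to 571 (median 371) and the dense zone 890 to 1353 (median 1014). No zone overlapped another. The difference between dense and light zones was 3.03 on the log2 scale (SE 0.19, limma adjusted p = 0.000304), 8.68-fold in gradient 1 and 7.84-fold in gradient 2. Of this, 1.58 (SE 0.19, adjusted p = 0.00232) came between light and middle zones. Otc kept rising from middle to dense by 1.45 (SE 0.19, adjusted p = 0.00754).

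Nags, the maker of the Cps1 activator, behaved otherwise. Its light zone held 24.8 to 104 TPM (median 49.2), its middle zone 93.7 to 199 (median 137) and its dense zone 92.2 to 233 (median 153). Light and dense zones overlapped when gradients were pooled, gradient 1 being the higher throughout, and were apart within each gradient. The rise from light to middle was 1.46 (SE 0.46, limma adjusted p = 0.0450) and that from light to dense 1.58 (SE 0.46, adjusted p = 0.0272), so most of it was complete by the middle zone. Both calls were lost with zones moved to fractions 5-8, 11-14 and 15-18 (adjusted p = 0.107 and 0.0654), and the first also with TPM rescaled without the 50 most abundant genes (0.0636) and after quantile normalization (0.0503). Dense and middle zones overlapped in both gradients, and their difference was 0.13 (SE 0.46, adjusted p = 0.878). The highest library was fraction 18 of gradient 1 (233 TPM) and fraction 15 of gradient 2 (123 TPM), after which gradient 2 declined to 88.5 TPM at fraction 21. An antisense gene, Gm11586, overlaps Nags over 698 bases and is not in both tables. The libraries were stranded, but whether quantification used the strand is not given in the sources used here.

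Ass1, the cytosolic enzyme that condenses citrulline with aspartate, rose late. Light libraries held 1689 to 3422 TPM (median 2808), middle libraries 2763 to 6799 (median 4400) and dense libraries 7264 to 14513 (median 9749). The dense libraries stood above all others, while light and middle libraries overlapped in gradient 1. From light to middle the difference was 0.73 (SE 0.32, limma adjusted p = 0.106, and 0.00683 with the gradient as a block), and from middle to dense 1.22 (SE 0.32, adjusted p = 0.0376, but 0.109 with the moved zones and 0.0655 after quantile normalization). The whole rise was 1.95 (SE 0.32, adjusted p = 0.00317). Both gradients showed a step early in the profile, with 2967 TPM at fraction 6 of gradient 1 before a dip to 2396 at fraction 8, and a near-flat stretch from 3422 to 3556 TPM between fractions 7 and 9 of gradient 2.

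Asl, which splits argininosuccinate into arginine and fumarate, had the largest mean change of the 8 from light to dense, above that of Otc in gradient 1 (3.59 against 3.11 on the log2 scale) and in gradient 2 (3.14 against 2.96), a difference that was not tested. Its libraries held 101 to 301 TPM in the light zone (median 219), 548 to 1049 in the middle zone (median 746) and 1563 to 2306 in the dense zone (median 2011). The zones did not overlap. Dense exceeded light 11.2-fold in gradient 1 and 8.54-fold in gradient 2, or 3.37 on the log2 scale (SE 0.18, limma adjusted p = 0.000301). The rise was divided between light to middle (1.96, SE 0.18, adjusted p = 0.00123) and middle to dense (1.40, SE 0.18, adjusted p = 0.00714).

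Arg1, the urea-releasing arginase, followed Asl. Light libraries ran from 686 to 1095 TPM (median 922), middle ones from 1459 to 2641 (median 1936) and dense ones from 4467 to 6711 (median 5633), again without overlap. The rise from light to dense was 2.60 (SE 0.18, limma adjusted p = 0.000328), of which 1.51 (SE 0.18, adjusted p = 0.00702) fell between middle and dense. In gradient 1 the level increased at 16 of 16 steps from 1 fraction to the next.

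Glul, which makes glutamine, was shaped differently at the light end. It held 593 TPM at fraction 4, 716 at fraction 5 and 405 at fraction 6 in gradient 1, and 642, 832 and 499 TPM at the same fractions in gradient 2. This early crest was present in both gradients, and fraction 5 was higher than any later fraction up to 12. Over the zones, Glul ran from 405 to 832 TPM in the light (median 546), 483 to 798 in the middle (median 602) and 1084 to 1570 in the dense zone (median 1336). Light and middle zones overlapped and differed by 0.13 (SE 0.17, limma adjusted p = 0.539), a difference whose sign turned under other scalings of the libraries (-0.053 and -0.20). The dense zone was above both without overlap, by 1.14 over the middle (SE 0.17, adjusted p = 0.00841) and by 1.28 over the light zone (SE 0.17, adjusted p = 0.00153). Teddm2, on the opposite strand, overlaps Glul over 285 bases and is not in both tables, and the microRNA gene Mir8114 lies within it on the same strand.

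Gls2, which releases ammonia from glutamine, peaked in the middle of the gradient. Its light zone held 116 to 309 TPM (median 191), its middle zone 506 to 642 (median 563) and its dense zone 387 to 586 (median 473). The middle libraries were all above the light ones, by 1.54 on the log2 scale (SE 0.15, limma adjusted p = 0.00144). Dense libraries were all above the light ones too, by 1.29 (SE 0.15, adjusted p = 0.00101). They were below the middle zone without overlap in gradient 1 and with overlap in gradient 2, a difference of -0.24 (SE 0.15, adjusted p = 0.289). The peak was 596 TPM at fraction 12 in gradient 1 and 666 TPM at fraction 14 in gradient 2, and fraction 21 had come down to 417 and 386 TPM. Spryd4, on the opposite strand, overlaps Gls2 over 97 bases and averaged 79.5 and 58.6 TPM in the 2 gradients.

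Counted together, 8 of 8 members were higher in the dense than in the light zone (limma adjusted p under 0.05), against 22.3% of the 11754 genes tested. The median change was 2.04 for the members and -0.43 for all genes, and the members lay at percentiles 86.1 to 99.7 of all changes. Of all genes called, 2616 were higher and 4658 lower, a split of 36.0% higher that became 50.6% after quantile normalization, under which the 8 members stayed higher. In 7 of the 8 (all but Nags) the 8 dense libraries were above the 8 light ones, a pattern found in 16.9% of genes. The same held for 5 members from light to middle (17.6% of genes) and for 5 from middle to dense (5.45% of genes). From light to middle, 6 members rose against 23.5% of genes, with medians of 1.40 and 0.046, and Ass1 and Glul were not called. With the gradient as a block that background was 37.2% and Ass1 was called as well. From middle to dense, 5 members rose (Otc, Ass1, Asl, Arg1 and Glul) against 4.79% of genes, with medians of 1.18 and -0.28, and Cps1, Nags and Gls2 were not called. The middle to dense background was 14.1% with the gradient as a block, where Cps1 joined the 5. The split of calls from middle to dense was 17.5% higher, and 43.2% after quantile normalization, under which 4 members were called.

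**Figure D2:**
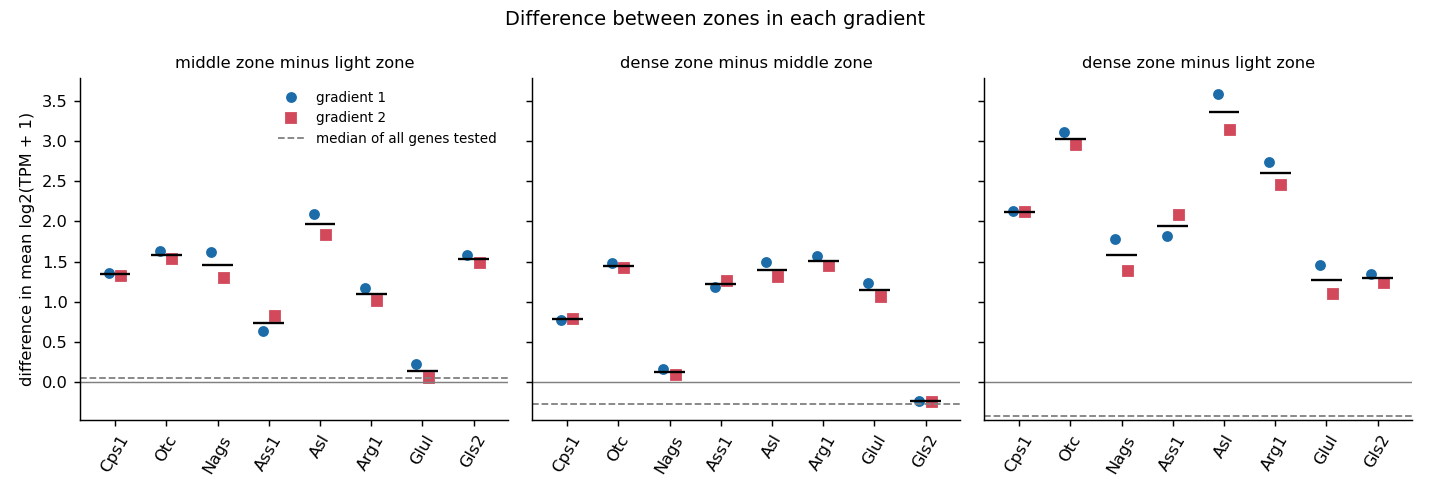
Difference in mean log2(TPM + 1) between zones (vertical axis) for each RNA, with a circle for gradient 1, a square for gradient 2, a bar for their mean and a dashed line for the median of the 11754 genes tested. Glul sits near 0 from light to middle, Nags and Gls2 sit near 0 from middle to dense (0.13 and -0.24), and all 8 are above 1 from light to dense.

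The mitochondrial and cytosolic enzymes of the cycle were then compared. From light to dense, Cps1, Otc and Nags rose by a mean of 2.25 ± 0.14 on the log2 scale and Ass1, Asl and Arg1 by 2.64 ± 0.11 (SD, n = 2 gradients). The difference, mitochondrial minus cytosolic, was -0.37 in gradient 1 and -0.41 in gradient 2. It was 0.20 ± 0.052 from light to middle and -0.59 ± 0.025 from middle to dense in these means of 3 genes. Single genes did not follow the means, as cytosolic Asl rose more from light to middle (1.96) than any mitochondrial enzyme and mitochondrial Otc rose more from middle to dense (1.45) than Asl (1.40) or Ass1 (1.22). All 3 differences exceeded the spread between gradients, but 2 within-gradient differences allow no smaller exact two-sided p than 0.5 and genes are not replicates, so no test was made.

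This difference was not shared evenly by the mitochondrial enzymes. Without Nags it shrank from -0.39 to -0.058 ± 0.048 between light and dense zones, and from -0.59 to -0.26 ± 0.039 between middle and dense zones, and it stayed at 0.20 between light and middle. By Pearson's r over the 17 shared fractions, Otc was as close to Cps1 (0.967 and 0.970) as to cytosolic Arg1 (0.963 and 0.965). From middle to dense alone, the rise of Otc (1.45) lay between those of Asl (1.40) and Arg1 (1.51). In this rise Cps1 (0.78) was intermediate. Nags (0.13) and Gls2 (-0.24), both mitochondrial, leveled off or turned down, which is a grouping made after the values were seen. Adding Gls2 to the mitochondrial and Glul to the cytosolic enzymes gave -0.29, 0.50 and -0.79 for light to dense, light to middle and middle to dense.

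Fraction by fraction, each gene was set relative to its own mean over the 17 shared fractions. The mitochondrial enzymes were most ahead of the cytosolic ones at fraction 10 of gradient 1 (0.40 on the log2 scale) and fraction 9 of gradient 2 (0.42). Without Nags these values were 0.22 and 0.24, and the largest lead was at fraction 4 (0.41 and 0.39). With Nags kept, the mitochondrial enzymes lay behind from fraction 15 on in gradient 1 and from fraction 14 on in gradient 2. At fraction 21 the difference was -0.62 and -0.51. They were also behind at the light end, at fraction 6 of both gradients (-0.24 and -0.024) and fraction 5 of gradient 2 (-0.040). Leaving out Nags, fraction 6 gave -0.45 and -0.25. Without Nags, fraction 21 gave -0.49 in gradient 1 and -0.036 in gradient 2, so that the gradients no longer matched at the dense end.

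**Figure D3:**
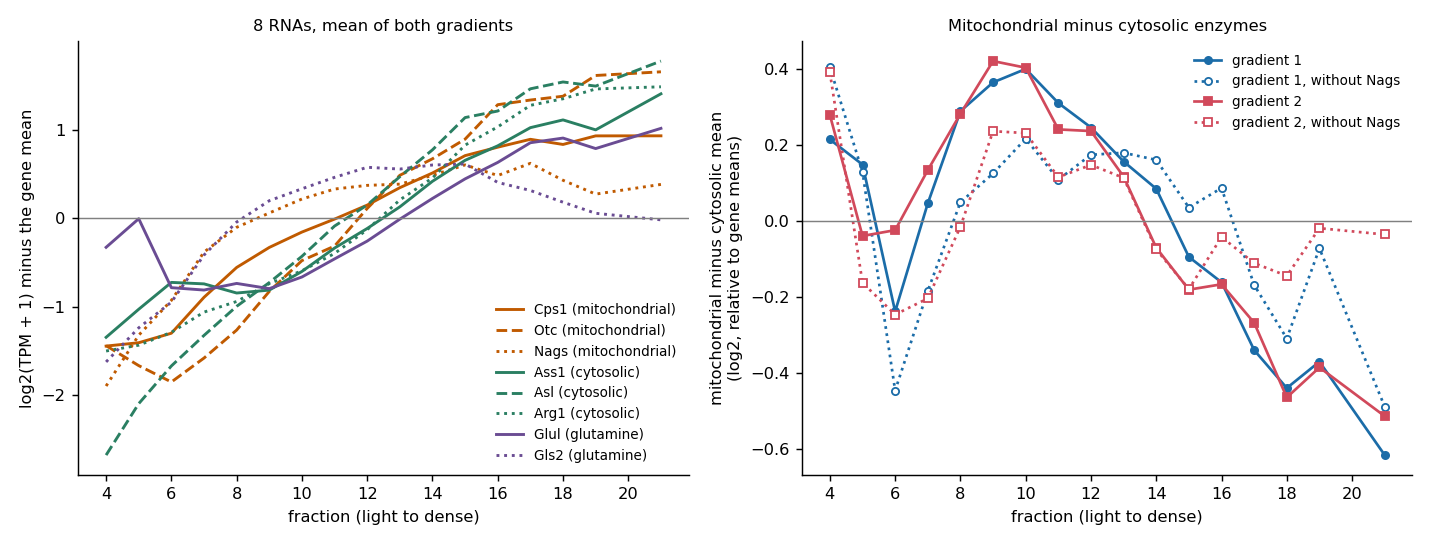
Left, log2(TPM + 1) of each RNA minus its own mean over the 17 shared fractions, averaged over both gradients, against fraction number, with color for the group and line style for the gene. Right, the mean of Cps1, Otc and Nags minus the mean of Ass1, Asl and Arg1 on that scale in each gradient, with open symbols for the same without Nags, showing a high of 0.40 and 0.42 near fractions 9 and 10 and a low of -0.62 and -0.51 at fraction 21.

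The center of sedimentation, the mean fraction number weighted by TPM over the 17 shared fractions, summarized these profiles. Asl (15.6 ± 0.067, SD, n = 2) and Otc (15.6 ± 0.22) were the densest and did not differ beyond their spread. Arg1 (15.3 ± 0.26) did not differ from Otc beyond the spread either, and in gradient 1 it was the denser (15.5 against 15.4). Ass1 (14.8 ± 0.41) followed, and it and Arg1 had 15.1 each in gradient 2. Cps1 (14.4 ± 0.19) did not differ from Ass1 beyond the spread between gradients. Within each gradient Ass1 was the denser (14.6 against 14.3 in gradient 1 and 15.1 against 14.6 in gradient 2). Then came Glul (14.0 ± 0.26), Nags (13.5 ± 0.31) and Gls2 (13.1 ± 0.036). The median of all 11371 genes was 11.3 in each gradient, and the members lay at percentiles 77.4 (Gls2) to 99.9 (Otc). Cps1 has 4503 coding bases, the 4 RNAs with the densest centers have 972 to 1395, Glul has 1122, Nags 1584 and Gls2 1809. A part of length in the order was not tested.

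**Figure D4:**
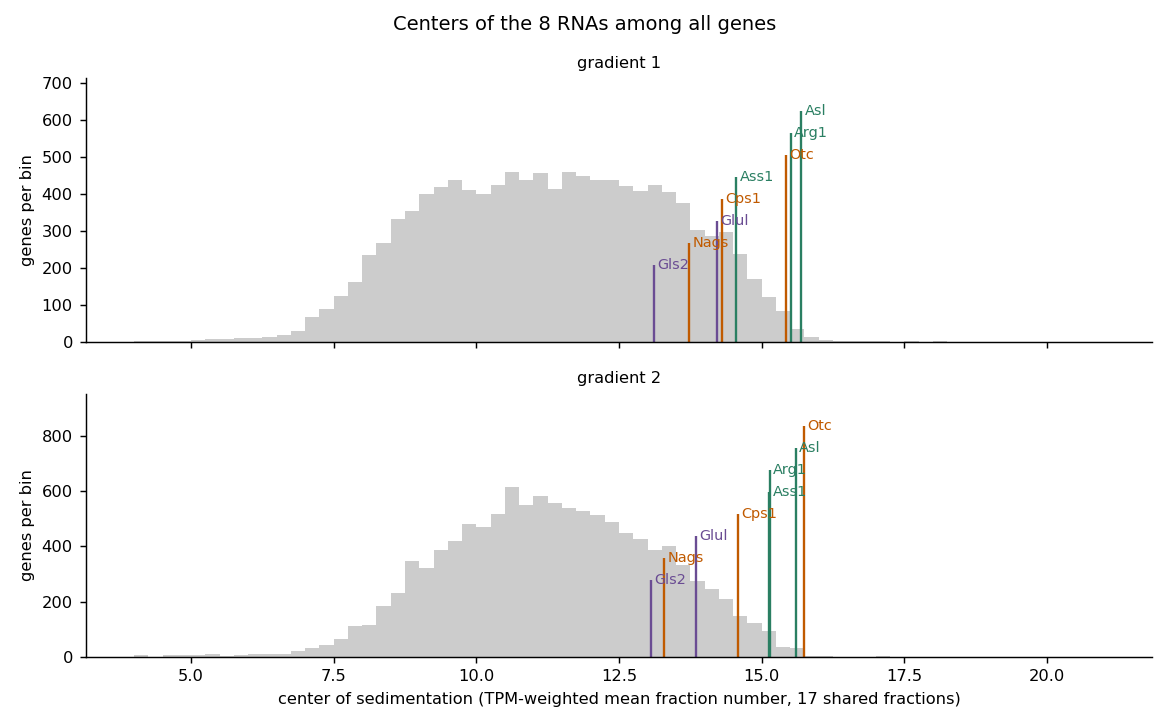
Number of genes per bin of 0.25 fractions (gray bars) against the center of sedimentation in gradient 1 (top) and gradient 2 (bottom), with a line for each of the 8 RNAs whose height only separates the labels and whose color marks the group. All 8 lie to the dense side of the all-gene median of 11.3, from 13.1 for Gls2 to about 15.6 for Asl and Otc.

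Profiles were compared by Pearson's r of TPM over the 17 shared fractions, as a description, since neighboring fractions are not independent and all profiles share the same libraries. The cytosolic enzymes correlated with each other at 0.959 to 0.987 in gradient 1 and 0.952 to 0.986 in gradient 2. Among mitochondrial enzymes only Cps1 and Otc did so (0.967 and 0.970), while Otc and Nags had 0.780 and 0.520. Otc correlated with cytosolic Ass1 at 0.960 and 0.991. Nags had 0.882 and 0.936 with Gls2, beside 0.885 and 0.705 with Cps1, and the opposed enzymes Glul and Gls2 were the least alike pair (0.282 and 0.156). With Alb, the RNA of secreted albumin, all 8 had a negative r, from -0.941 to -0.445 in gradient 1 and -0.942 to -0.268 in gradient 2. It was weakest for Glul in both. With Psma1, a proteasome subunit, all were positive, from 0.552 to 0.980 and from 0.589 to 0.937. The share of all genes with these signs was not counted.

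Of 6729 genes with at least 10 TPM in both gradients, the most similar to each member were ranked by the lower r of the 2 gradients. Cps1 was most like Copa, a subunit of the coatomer coat (0.996), Sqrdl and Hacl1. Otc was nearest to Aldh1a1, a retinal dehydrogenase (0.996), Aldh1a7 and Lonp2. Asl was nearest to Aldh1b1 (0.997), Acaa2, a mitochondrial thiolase, and Gsdmd. For Arg1 the list was St13, Ifi35 and Sds, the serine dehydratase (0.988), and for Ass1 it included Tat, tyrosine aminotransferase (0.992), and Pgd (0.992). Nags was most like Sympk (0.984), Cluh, a protein that binds RNAs of mitochondrial proteins (0.980), and Snx9. Glul was most like Ciao1 (0.981), Bdh1 and Pacsin2, and Gls2 was most like Psmd3, a proteasome subunit (0.981), Aamp and Cog4.

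A list of 28 partners in ammonia, aspartate, glutamate and arginine handling, 26 of them in both tables and 25 tested, did not move together. From light to dense, 9 rose, 7 fell and 9 were not called, with a median of 0.35, beside 22.3% of genes called higher and 39.6% lower. With the gradient as a block, 13 rose and 9 fell, beside 30.5% and 50.0% of genes. Without the block, those that rose included the transaminases Gpt (2.88 on the log2 scale, limma adjusted p = 0.000790), Oat, the ornithine aminotransferase (2.66), Got1 (2.05) and Got2 (1.84), while Gpt2 (0.35, adjusted p = 0.294) was not called. The others were Car5a, the mitochondrial carbonic anhydrase (2.09), Cad of pyrimidine synthesis (2.23), the deacylase Sirt5 (2.13) and the aspartate-glutamate carriers Slc25a13 (1.47) and Slc25a12 (1.20). Those that fell were the cationic amino acid transporter Slc7a2 (-3.57, adjusted p = 0.00490), Odc1 of polyamine synthesis (-3.08), the amino acid transporters Slc38a2 (-2.36), Slc38a4 (-2.04) and Slc1a2 (-2.07), the channel Aqp9 (-2.07) and the mitochondrial ornithine carrier Slc25a15 (-0.65, adjusted p = 0.0249). The last value is to be set beside the median of -0.43 over all genes. From light to middle 8 rose and 6 fell, beside 23.5% and 24.1% of genes, and with the gradient as a block 12 rose and 7 fell, beside 37.2% and 35.0% of genes. From middle to dense 3 rose (Got2, Gpt and Sirt5) and 1 fell (Odc1), beside 4.79% and 22.5% of genes. With the block these counts were 10 and 5, beside 14.1% and 39.3% of genes. Car5a, which supplies bicarbonate to Cps1, went from light to middle by 2.44 and from middle to dense by -0.35 (adjusted p = 0.278), so that its mean, like that of Gls2, was highest in the middle zone.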

How the data were processed

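The authors pseudo-aligned reads of stranded, rRNA-depleted libraries with kallisto to RefSeq transcripts of mm10 and deposited 1 TPM table per gradient. The kallisto version and strand setting are not given in the sources used here, and bcl2fastq 2.16.0.10 is named in the submitters' processing notes. TPM holds no counts, so depth is unknown and precision is known only from the 2 gradients.

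From these values, log2(TPM + 1), which understates changes of low genes, was averaged over the 4 fractions of each zone and gradient. Zones were compared with limma 3.58.1 (eBayes with trend, R 4.3.3) over the 11754 genes averaging 1 TPM or more in the 24 zone libraries, with Benjamini-Hochberg adjustment over all of them and a threshold of 0.05. All zones of a gradient share 1 homogenate and are thereby paired, and the gradients' deviations correlated between zones across genes (r = 0.665 for light and middle, 0.540 for light and dense, 0.798 for middle and dense), so the gradient was also fitted as a block. Other values used Python 3.11.15 and pandas 2.3.3.

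All 8 members were named, with up to 3 similar genes each and lists of partners, periportal, perivenous and cell-type markers. Some items, such as certain similar genes, markers and coding starts, are not reported here. Members and lists were chosen with earlier results of these data known. On simulated data for dense against light over 11754 genes, 14%, 54% and 82% of 50 genes raised by 1, 2 and 3 (log2) were recovered, and 64% of 50 lowered by 2. Far fewer genes changed there than the 7274 called in the data, and the simulated gradients were not paired. These rates therefore do not give the sensitivity of the fits to the data. Alternatives were the pseudocount, filters, scalings, zone borders, block, trend, a gradient left out, enzyme groups and center weights.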

Additional observations from a re-analysis of the deposited data

How the results depend on the processing

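Of 216 refits of the 8 members in 3 zone contrasts, 203 kept the direction and the side of the threshold, 7 lost the call, 3 gained it and 3 changed sign. The sign changes were Glul from light to middle, at -0.053 with TPM rescaled without the 50 most abundant genes, -0.20 after quantile normalization and -0.088 with fractions 4-6, 10-12 and 17-19, none past the threshold. With zones shifted to fractions 5-8, 11-14 and 15-18, the calls of Nags from light to dense (1.22, adjusted p = 0.0654) and from light to middle (1.08, 0.107) and of Ass1 from middle to dense (0.88, 0.109) were lost. Rescaling lost Cps1 (1.16, 0.0702) and Nags (1.28, 0.0636) from light to middle. Quantile normalization lost Nags from light to middle (1.27, 0.0503) and Ass1 from middle to dense (0.88, 0.0655) and gained Ass1 from light to middle (0.94, 0.0322). The replicate block, which pairs the zones of a gradient, gained Ass1 from light to middle (0.73, 0.00683) and Cps1 from middle to dense (0.78, 0.00371) and changed no other call of a member. With either gradient left out, the values, which then have no test, kept their sign. The cause of these shifts was not tested.

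Over all genes, 7274 were called from light to dense and 4798 with a mean TPM of at least 10, where fewer genes were tested. From light to middle, 5589 became 8478 with the replicate block, and from middle to dense 3208 became 6275 with the block and 1325 with the shifted zones. Quantile normalization moved the median of all genes by 0.37 from light to dense and 0.33 from middle to dense. Rescaling moved it by -0.16 from light to middle. Relative to the median of all genes, after quantile normalization the members' median was 1.91 and 1.02 (2.46 and 1.46 without it). The mitochondrial minus cytosolic difference became -0.058 (light to dense) and -0.26 (middle to dense) without Nags, and -0.29, 0.50 and -0.79 with Gls2 and Glul added. Centers with log2 weights ran, from the densest, Asl, Otc, Arg1, Nags, Cps1, Ass1, Glul and Gls2. In gradient 1 alone Arg1 (15.5) preceded Otc (15.4), and in gradient 2 alone Otc (15.7) preceded Asl (15.6), while fractions 4 to 19 and rescaled TPM kept the order. TPM without read counts sets the limit here, as counting error is unknown.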

Other observations

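The 4 members that are also periportal markers were set beside 10 other markers of that zone of the lobule, of which 4 rose from the light to the dense zone, 3 fell and 3 were not called (4 rose and 6 fell with the gradient as a block). Pck1, the gluconeogenic kinase (2.53 on the log2 scale), Hal, histidase (2.26), Sds (3.69) and Sdsl (2.92) rose, and Igf1 (-2.59), G6pc, an enzyme of the endoplasmic reticulum (-2.48), and Ctsc (-2.38) fell (limma, adjusted p under 0.05). Among 13 tested perivenous markers other than Glul, 3 rose, 2 fell and 8 were not called (3 rose and 6 fell with the block), with Rgn (2.21), Oat (2.66) and Gulo (1.06) higher and Cyp2e1 (-2.45) and Slc1a2 (-2.07) lower. Over all genes, 22.3% rose and 39.6% fell, or 30.5% and 50.0% with the block. Both lists held genes that moved with the urea cycle RNAs and genes that moved against them.

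Fractions 3, 20, 22, 23 and 24 were sequenced in gradient 2 alone and entered no comparison. At the bottom of that gradient Ass1 reached 20390 TPM in fraction 23, and Cps1 had 7414 TPM there, the highest value of either RNA in any library. Otc peaked in fraction 22 with 1840 TPM and Asl in fraction 23 with 2653 TPM. Arg1 turned down from 6097 TPM in fraction 20 to 4962 in fraction 24, and Glul from 1553 in fraction 21 to 1364. Nags fell to 74.9 TPM in fraction 22 and Gls2 to 352, below their values in every fraction from 8 to 21. Together the 8 RNAs made up 0.395% of TPM in fraction 4 of gradient 1 and 3.94% in fraction 23 of gradient 2, the lowest and highest of the 39 libraries.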
